A study of Mus musculus with 8 samples.

Results

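Mitochondria make few of their own proteins, and nearly all others are built in the cytosol, carried across 1 or both mitochondrial membranes, folded inside and, when damaged, cut up by proteases. The 46 genes described here encode that route: the outer and inner membrane import channels, the small chaperones between the membranes, the processing peptidases, the folding chaperones and the quality control proteases. They were chosen by name, as all genes whose symbol begins with Tomm or Timm plus 21 listed genes, out of 12367 genes in the table. The rule uses names only, but it was drawn up with earlier results of these data known. Of the 46, 43 belong to the route and 3 carry a matching name without being part of it: Timmdc1, which assembles complex I, Tomm34, a cytosolic cochaperone, and Tomm6os, an RNA from the strand opposite Tomm6. All 46 passed the filter on low values.

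The RNA came from alveolar macrophages, the resident phagocytes of the air spaces, which were sorted as CD45+ F4/80+ CD11c+ cells from the lungs of untreated mice aged 3 weeks. The 4 control libraries (WT) came from Tfam-fl/fl mice, whose Tfam alleles are flanked by loxP sites, and the 4 experimental libraries (KO) from CD11c-Cre Tfam-fl/fl mice, in which the CD11c promoter drives a Cre recombinase that can delete them. Tfam packages mitochondrial DNA and is needed to transcribe it. Each library was a pool of 3 to 5 male and/or female mice. A group with the Cre and intact Tfam was not analysed here, so that effects of Cre and of Tfam loss cannot be told apart, and in sorted bulk RNA a change in the mix of cells and a change per cell cannot be told apart either.

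Import works as a relay. Receptors and a pore of the TOM complex take precursor proteins through the outer membrane. From there the TIM23 channel, with a motor driven by the Hsp70 encoded by Hspa9, pulls those with a targeting sequence into the matrix, while the small TIM chaperones escort membrane carriers to the TIM22 channel. The processing peptidase removes the targeting sequence, and Hsp70, Hsp60 (Hspd1) and Hsp10 (Hspe1) fold the product. Chaperones and proteases of this route are known as the output of the mitochondrial unfolded protein response, a nuclear programme set off when proteins misfold or fail to assemble in mitochondria.

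Values are the deposited normalised signal, on the scale of CPM with a library size that the authors scaled. They are not divided by gene length, so levels of different genes are not set against each other. Reads in the listed genes, as recovered from these normalised values, numbered 20243772 to 30263201 per library. Tfam had 26.1, 35.2, 30.3 and 29.7 in the WT pools and 4.52, 5.08, 4.29 and 3.52 in the KO pools, in the order of replicates 1 to 4, which is the order used for all values below. The 10 alveolar macrophage markers examined were present in all libraries, but not at like levels. In limma 2 were higher in KO, Itgax (1094 ± 48.5 in WT, 2049.5 ± 202 in KO) and Car4 (723 ± 122, 1336 ± 189.6), and 3 were lower, Ear1 (845 ± 112, 123 ± 39.3), Siglecf (501 ± 37.6, 194 ± 20.9) and Cidec (414 ± 42.9, 199.7 ± 17.5), all 5 without overlap, while 5 did not pass. Their summed level, 30459 to 32713 in WT and 32892 to 38290.2 in KO, is mostly that of Chil3 (23528 ± 1334 in WT). Other things moved with genotype too. The summed level of 6 markers of interstitial macrophages and monocytes (of 8 listed) was 36.7 to 62.2 in WT and 68.2 to 191 in KO, and that of 6 genes of dividing cells was 439.6 to 707 in WT and 155 to 216 in KO. None of these 12 genes was at 0 reads in any library, and their part in the results below was not tested. Summed markers of epithelium (51.1 to 139 in WT, 41.5 to 98.1 in KO), endothelium (18.7 to 80.8 and 28.6 to 45.2), dendritic cells (14.3 to 20.6 and 15.4 to 28.2), neutrophils (13.8 to 41.7 and 12.1 to 21.1), red cells (20.5 to 48.4 and 11.3 to 55.5) and 1 B cell gene (0.769 to 1.47 and 0.436 to 1.14) overlapped between the groups. Within these lists 3 single genes passed the test: Epcam was lower in KO (19.5 ± 1.77 in WT, 2.05 ± 0.816 in KO, no overlap), S100a9 was lower (11.9 ± 7.45, 3.82 ± 2.17, with overlap) and Clec9a was higher (1.3 ± 0.347, 2.74 ± 0.743, no overlap). Their part in the results was not tested either. The table lists none of the T, NK and eosinophil markers examined.

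Of the 46 genes, 13 rose in KO, 0 fell and 33 did not pass the test (limma on log2(value + 1), Benjamini-Hochberg adjusted p under 0.05 over all 12163 tested genes). In the whole table the test called 38.7% of genes, with 18.7% up and 20.0% down. The members' share, 28.3% called, was thus below that of the whole table, while all of their calls were upward. The count of 13 was 8 without KO replicate 3. At an unadjusted p under 0.05, 0 members were lower. Limma with voom weights, on read numbers recovered from the deposited values, gave 12 higher and 0 lower. No share of all tested genes is given for the unadjusted and voom counts. Other settings did call 1 member lower, Oma1. With the replicate number as a block 14 were higher and 1 lower (Oma1, limma adjusted p = 0.00556), against 22.4% and 24.3% of all tested genes. Oma1 was also lower with library quality weights. The same held when KO replicate 4 was dropped, alone or together with its WT counterpart. The median log2 fold change was 0.0859 over the members and -0.00633 over all tested genes, and 33 members had a positive and 13 a negative estimate. In 10 members every KO pool lay above every WT pool and in 0 every KO pool lay below, against 18.1% and 19.6% of all tested genes. Summed over the 46 genes, the values were 2708 ± 46.2 in WT and 3357 ± 159.9 in KO (SD, n = 4). Without Hspa9 the sums were 2382 ± 43 and 2641 ± 49.9. The plot of fold changes by role shows Hspa9 and Dnaja3, 2 folding chaperones, with the largest estimates and Timm8b next. The motor genes other than Hspa9 lay between -0.01 and 0.13.

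**Figure D1:**
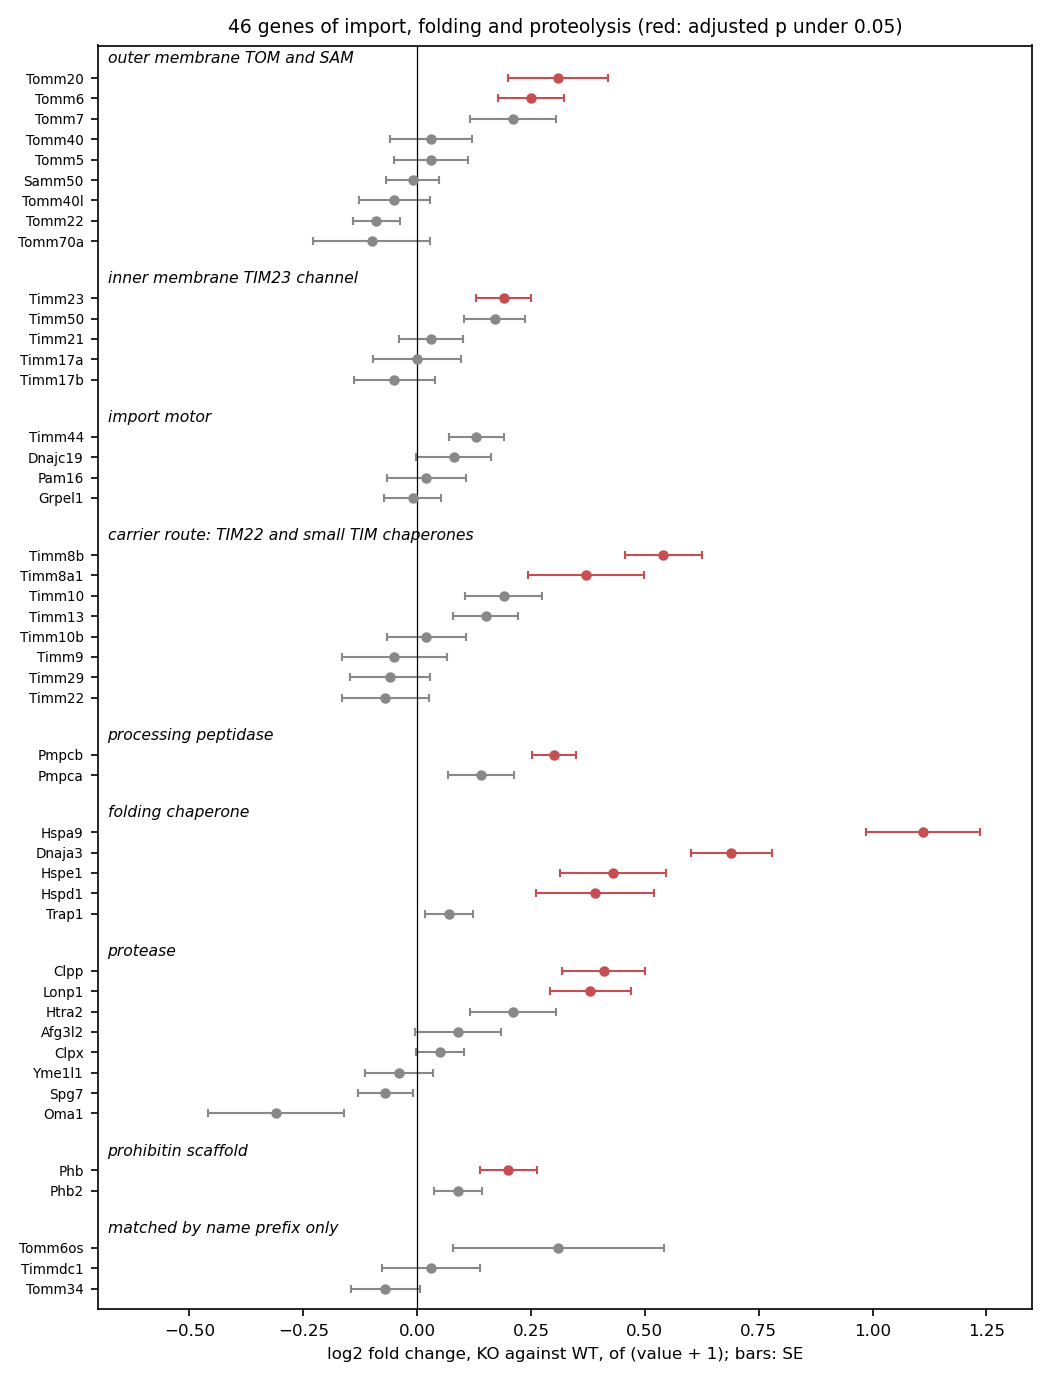
Log2 fold change of each of the 46 genes, KO against WT (x axis, of value + 1; bars are standard errors, 4 pools a group), grouped by role; red marks the 13 genes past an adjusted p of 0.05. Hspa9 stands at 1.11, and the other motor genes lie between -0.01 and 0.13.

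Folding chaperones rose in 4 of 5 members (80.0%, against 18.7% of all tested genes), with a median log2 fold change of 0.426. Hspa9, the mitochondrial Hsp70 that both pulls precursors in and folds them, had 317, 325, 335 and 324 in WT and 726, 814, 804 and 522 in KO. The WT pools lay within a few percent of each other, and all KO pools stood above them, with KO replicate 4 the lowest. The ratio of means was 2.2, and the log2 fold change was 1.11 (SE 0.125, limma adjusted p = 0.000109). It was the member with the largest change. Dnaja3, the J-domain partner that hands substrates to this Hsp70, had 36.6, 46.3, 42.5 and 45.2 in WT and 70.4, 72.6, 73.2 and 60.5 in KO. Here too the groups did not overlap, and KO replicate 4 was again the lowest KO pool (log2 fold change 0.69, SE 0.0889, limma adjusted p = 0.00025). Trap1, the mitochondrial Hsp90, had 71.4 ± 2.55 in WT and 75.1 ± 3.16 in KO and did not pass (limma adjusted p = 0.31).

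Hspd1 and Hspe1 encode the Hsp60 barrel and its Hsp10 lid, which fold matrix proteins together. The genes lie head to head on chromosome 1 of GRCm38, Hspd1 on the minus strand from 55077835 to 55088243 and Hspe1 on the plus strand from 55088132 to 55091307 (GENCODE M21), so that their first exons overlap. A stretch between the RefSeq start of Hspe1 and the more downstream of the RefSeq starts of Hspd1 is shown because these 2 members share it. Capitals mark a heat shock element of 4 alternating units, searched on both strands as TTC, GAA, TTC and GAA with any 2 bases between each, which contains the shorter pair GAANNTTC:
Hspe1 and Hspd1, chr1:55088053-55088082, plus strand: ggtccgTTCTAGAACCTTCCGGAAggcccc
The element ends 72 bases before the RefSeq start of Hspe1 and also lies within an annotated 5′ UTR exon of Hspd1. This longer motif was searched after the sequence had been seen. Of 32851 promoter windows of 250 bases, 4 held it (0.0122%), those of Hspd1, Hspe1, Arpc2 and Fam149a. The windows of Hspd1 and Hspe1 overlap and hold the same site. The shorter pair was in 6.69% of windows. By gene it was in 3 of 40 members with a window (7.5%, Hspd1, Hspe1 and Timm9), against 6.18% of 9244 tested genes with one. Such elements bind heat shock factors. A match is a description of these letters and shows no binding in these cells.

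The values of the 2 genes moved together from library to library. Hspd1 had 222, 246, 253 and 349 in WT and 308, 339, 349.6 and 393 in KO. Hspe1 had 57.9, 65.7, 65.2 and 87.9 in WT and 87.1, 90.2, 89.6 and 102 in KO. In both genes replicate 4 was the highest pool of each genotype, and the groups overlapped through WT replicate 4. Hspe1 rose by 0.43 on the log2 scale (SE 0.116, limma adjusted p = 0.0161). Hspd1 rose by 0.39 (SE 0.13, limma adjusted p = 0.0387). The log2 ratio of Hspd1 to Hspe1 lay between 1.81 and 1.98 in all 8 libraries and changed by -0.04 (exact two-sided permutation p = 0.429).

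The 4 replicate numbers pair the libraries, as judged from correlated deviations, and with the number as a block the standard error for Hspd1 was 0.0604 and its limma adjusted p 0.000927. Within numbers 1 to 4 the KO minus WT difference of Hspd1 was 0.47, 0.46, 0.46 and 0.17 on the log2 scale, and that of Hspe1 was 0.58, 0.45, 0.45 and 0.22. The first 3 numbers were thus nearly alike, and number 4 had the smallest difference in both genes. Without both replicate-4 libraries the log2 fold changes were 0.46 for Hspd1 (limma adjusted p = 0.000991) and 0.5 for Hspe1 (limma adjusted p = 0.000409). In the fit without the block, Hspd1 missed the threshold without WT replicate 1, 2 or 3 or KO replicate 2, 3 or 4, where the highest adjusted p was 0.102, under quantile normalisation (0.0628) and with no variance trend (0.0576).

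Several cytosolic chaperones were also highest in replicate 4 of both genotypes. Hspa8, the constitutive Hsp70 that delivers precursors to the outer membrane, had 1731, 1730.4, 1793 and 4945 in WT and 1868, 2029, 1777 and 5028 in KO. Its J-domain partner Dnaja1 had 95.2, 92.2, 88.4 and 238 in WT and 94.7, 108, 89 and 233 in KO. Replicate 4 was more than 1.2 times the mean of the other pools in both genotypes for 7 of 15 cytosolic chaperones and carriers, for 2 of 46 members (Oma1 and Timmdc1) and for 5.34% of all tested genes, by a factor chosen after the values had been seen. For Hspd1 this ratio was 1.45 in WT and 1.18 in KO, and for Hspe1 1.4 and 1.15. For Hspa9 it was 0.996 in WT and 0.668 in KO, so that the mitochondrial Hsp70 did not share the pattern. What set replicate 4 apart was not tested. The plot by replicate number shows these genes side by side.

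**Figure D2:**
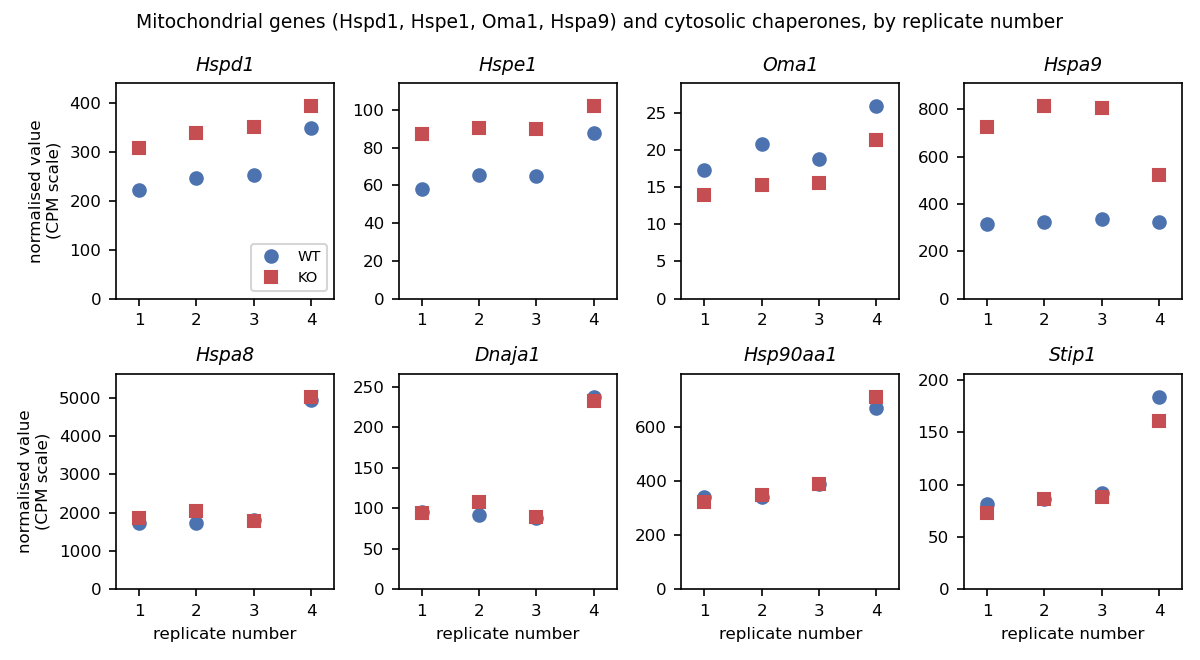
Normalised value (y axis, CPM scale) against replicate number (x axis) for 4 members (top) and 4 cytosolic chaperones or cochaperones (bottom), WT as circles and KO as squares, 1 pool a point. Hspa8 is at 4945 and 5028 in the replicate-4 pools and at 1730.4 to 2029 in the other 6, while Hspd1 and Hspe1 are higher in KO within each number.

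Of that list of 15 cytosolic carriers, 1 rose and 2 fell, 20.0% called against 38.7% of the whole table (18.7% up and 20.0% down). The 2 that fell were the ubiquitin ligase Ube4b, from 65.8 ± 5.17 to 53.1 ± 2.99, and the ubiquilin Ubqln2, from 70.2 ± 2.12 to 59.5 ± 4.47, which shields membrane proteins in the cytosol. With the replicate number as a block 4 rose and 3 fell, against 22.4% and 24.3% of all tested genes. Without WT replicate 1, 2 or 3 or KO replicate 1, 2 or 3, 0 rose, and without WT replicate 4, 3 rose. Hspa8 was at 0.09 on the log2 scale (SE 0.411, limma adjusted p = 0.888), and at 0.09 with a standard error of 0.0574 and an adjusted p of 0.247 under the block.

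Proteases rose in 2 of 8 members, with a range of log2 fold changes from -0.31 to 0.41. Clpp is the peptidase chamber of the matrix ClpXP protease, on chromosome 17 from 56990305 to 56996188 (GRCm38). It had 13.9, 15.7, 14.8 and 15.7 in WT and 23.4, 18.9, 21.1 and 18 in KO, with no overlap between the groups (log2 fold change 0.41, SE 0.0911, limma adjusted p = 0.00611). Lonp1, the ATP-driven Lon protease that clears oxidised and unassembled matrix proteins and binds mitochondrial DNA, lies on the same chromosome from 56614297 to 56626887. It had 53.6, 55.5, 54.5 and 53.5 in WT and 77.6, 75.9, 74.6 and 58 in KO. Its first 3 KO pools stood far above WT, and KO replicate 4 exceeded the highest WT pool by a small margin (log2 fold change 0.38, with SE 0.0886 and limma adjusted p = 0.00726). The change of Lonp1 was 0.48 when KO replicate 4 was left out.

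Clpx, the ATPase that feeds Clpp, did not pass, with 40.6 ± 1.21 in WT and 42.2 ± 1.51 in KO (limma adjusted p = 0.473). The log2 ratio of Clpx to Clpp was 1.38 ± 0.08 in WT and 1.02 ± 0.2 in KO, and its highest KO value, 1.25, was under its lowest WT value, 1.32. The exact two-sided permutation p was 0.0286, the smallest that 4 against 4 libraries allow, and 0.129 after adjustment over the 9 gene pairs examined. The proteases of the inner membrane did not pass: Afg3l2 and Spg7, subunits of the protease facing the matrix, and Yme1l1, which faces the intermembrane space, had log2 fold changes of 0.09, -0.07 and -0.04. Htra2, a protease of the intermembrane space, was at 0.21 (limma adjusted p = 0.109), and passed without WT replicate 4 (0.0257), without both replicate-4 libraries (0.0291) and with library quality weights (0.0489).

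Oma1 was the member with the lowest estimate. It encodes the stress-activated inner membrane protease that cleaves the fusion protein Opa1 and, through DELE1, passes mitochondrial stress to the integrated stress response. Values were 17.4, 20.9, 18.9 and 26 in WT and 14, 15.4, 15.6 and 21.4 in KO. The groups overlapped, since KO replicate 4 lay above WT replicates 1, 2 and 3, but each KO pool was below the WT pool of the same number, with log2 differences of -0.3, -0.41, -0.26 and -0.27. The log2 fold change was -0.31 (SE 0.149, limma adjusted p = 0.129). With the replicate number as a block the standard error was 0.0673 and the adjusted p 0.00556, so that Oma1 passed as lower there. It also passed in limma without KO replicate 4 (-0.43, adjusted p = 0.0265), without both replicate-4 libraries (-0.32, adjusted p = 0.0207) and with library quality weights (adjusted p = 0.0378). The substrate gene Opa1 and the relay gene Dele1 had log2 fold changes of 0.05 and 0.02 and did not pass.

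The processing peptidase cuts targeting sequences with 2 subunits. Its catalytic subunit, Pmpcb, had 50.2, 50, 51.5 and 49.4 in WT and 62.2, 64.8, 59.7 and 62.3 in KO, a small change with little spread (log2 fold change 0.3, SE 0.0487, limma adjusted p = 0.000951). Its partner subunit, Pmpca, had 72.9 ± 4.8 in WT and 80.6 ± 6.3 in KO (log2 fold change 0.14, limma adjusted p = 0.156). Under the replicate block Pmpca passed as higher (adjusted p = 0.0364). It passed, too, when KO replicate 4 was left out (0.0351) or both libraries numbered 4 (0.0358). The ratio of the subunits changed by -0.16 on the log2 scale (exact permutation p = 0.0571, 0.171 after adjustment).

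In the inner membrane, 1 of 5 genes of the TIM23 channel rose (20.0%, against 18.7% of all tested genes) and 0 of 4 genes of its motor other than Hspa9. The pore subunit Timm23 had 65.7, 67.9, 69.5 and 65 in WT and 80, 73.2, 82.4 and 70.7 in KO, with KO replicates 4 and 2 closest to WT (log2 fold change 0.19, limma adjusted p = 0.0352). It missed the threshold without WT replicate 1, 2 or 4 or KO replicate 1 or 3, with adjusted p up to 0.0997, and with no variance trend (0.0544). The receptor subunit Timm50 had 25.4 ± 0.978 in WT and 28.8 ± 2.01 in KO, without overlap, and did not pass (limma adjusted p = 0.0721), but did under quantile normalisation (0.0333) and median centring (0.0376). The alternative channel subunits Timm17a and Timm17b had log2 fold changes of 0 and -0.05, and their ratio changed by 0.05 (exact permutation p = 0.743). In the motor, Timm44, which docks Hsp70 at the channel, Dnajc19, Pam16 and the nucleotide exchange factor Grpel1 had estimates of 0.13, 0.08, 0.02 and -0.01. Neither these 4 nor Timm21, Timm17a and Timm17b passed the test under any setting tried.

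Grpel1 has a paralogue outside the 46 genes, Grpel2, that serves the same Hsp70. Grpel1 had 42.5, 43.6, 44.5 and 40 in WT and 44.4, 41.8, 44.3 and 38.9 in KO. Grpel2 had 19.6, 21.5, 18.9 and 21.3 in WT and 26.5, 27.8, 28.3 and 28.3 in KO, with no overlap (log2 fold change 0.43, with SE 0.065 and limma adjusted p = 0.000638). The log2 ratio of Grpel1 to Grpel2 went from 1.03 ± 0.13 to 0.59 ± 0.12 without overlap (exact permutation p = 0.0286, 0.129 after adjustment over the 9 pairs). None of the 9 pairs was past the adjusted threshold by this exact test (2 reached an unadjusted p under 0.05). Since its smallest p is 0.0286, a pair could pass after adjustment only if most of the 9 reached that value. The adjusted result therefore cannot tell whether a single ratio changed. The permutations also did not use the pairing by replicate number. The plot of these ratios gives the single pools.

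**Figure D3:**
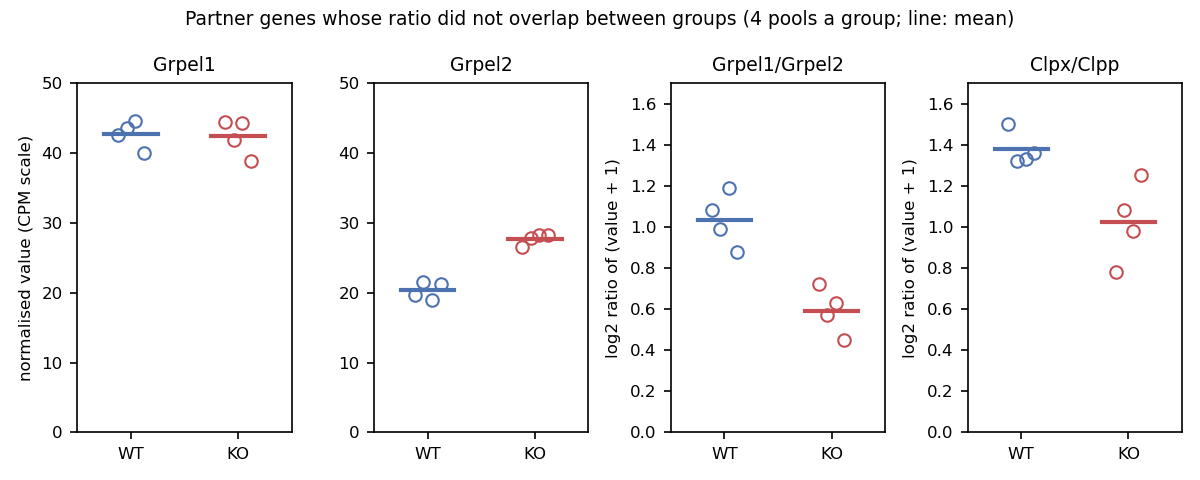
Values of Grpel1 and Grpel2 (CPM scale) and the log2 ratios of Grpel1 to Grpel2 and of Clpx to Clpp (right panels), 1 circle a pool and a line at the group mean. Grpel2 is at 18.9 to 21.5 in WT and 26.5 to 28.3 in KO while Grpel1 overlaps, and both ratios are lower in every KO pool.

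On the carrier route, 2 of 8 genes rose, and both encode the small chaperones of the Tim8 type. Timm8b had 19.7, 22.8, 19.8 and 19.9 in WT and 34.6, 29.9, 27.5 and 29.2 in KO. All KO pools were above WT, and replicate 1 had the highest KO value (log2 fold change 0.54, SE 0.0847, limma adjusted p = 0.000847). Timm8a1, the X-linked mouse counterpart of the gene mutated in human deafness-dystonia syndrome, had 24, 24.9, 25.7 and 20.7 in WT and 31.3, 29.6, 39.6 and 25.2 in KO. Its KO replicate 4 fell inside the WT range (log2 fold change 0.37, limma adjusted p = 0.0422), and the call was lost without any single library but KO replicate 4, with adjusted p up to 0.0934, and with no variance trend (0.055). Timm13, which pairs with Tim8, was at 0.15 and did not pass (limma adjusted p = 0.135). The partners Timm9 and Timm10, their relative Timm10b, and the channel genes Timm22 and Timm29 had log2 fold changes of -0.05, 0.19, 0.02, -0.07 and -0.06, none past the test.

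At the outer membrane 2 of 9 genes rose (22.2%, against 18.7% of all tested genes). Tomm6, a small subunit that steadies the TOM complex, had 75.5, 76.6, 73.8 and 65.9 in WT and 97, 81.5, 83.6 and 85.7 in KO, without overlap (log2 fold change 0.25, limma adjusted p = 0.0205, and 0.0503 without KO replicate 1). Tomm6 is overlapped on the other strand by Usp49 and Tomm6os, and whether the counting used strand is not given in the sources used here. Tomm6os itself stood at 0.847 ± 0.561 in WT and 1.21 ± 0.262 in KO. Tomm20, a receptor for targeting sequences, had 126 ± 16.8 in WT and 156 ± 17.9 in KO and lay just inside the threshold (log2 fold change 0.31, limma adjusted p = 0.0494). It lost the call without WT replicate 2, 3 or 4 or KO replicate 1, 2 or 3, with adjusted p up to 0.129, with no variance trend (0.0716) and with voom weights (0.052), while the replicate block gave 0.00133. The pore gene Tomm40 had a log2 fold change of 0.03. The receptor genes Tomm22 and Tomm70a had -0.09 and -0.1. Samm50, the core of the complex that inserts barrel proteins, had -0.01. The small subunit genes Tomm5 and Tomm7 had 0.03 and 0.21 and did not pass (limma adjusted p = 0.776 and 0.112). The 3 genes that match by name only did not pass either, with estimates of 0.03 for Timmdc1, -0.07 for Tomm34 and 0.31 for Tomm6os. The ratio of Tomm40 to its paralogue Tomm40l changed by 0.08 (exact permutation p = 0.229).

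Prohibitins form ring scaffolds in the inner membrane that hold the matrix-facing protease. Phb had 48.8, 55.9, 49.6 and 53.7 in WT and 57.4, 58.8, 58.8 and 63.9 in KO, without overlap, and rose slightly (log2 fold change 0.2, limma adjusted p = 0.0323). This call was lost without WT replicate 1 or 3 or KO replicate 2, 3 or 4 (adjusted p up to 0.0874) and without both replicate-4 libraries (0.0551). Its partner Phb2 was at 0.09 (limma adjusted p = 0.232), and their ratio did not pass either (0.11, exact permutation p = 0.229).

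**Figure D4:**
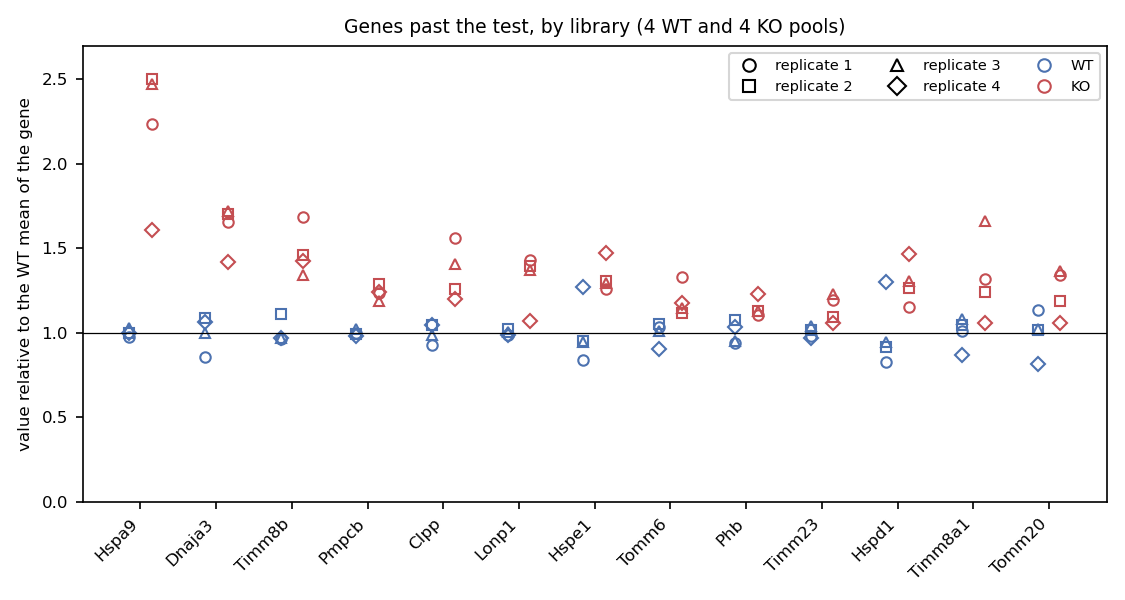
Value of each of the 13 genes past the test in each pool, divided by the WT mean of the gene (y axis), WT in blue and KO in red, with the symbol giving the replicate number. Hspa9 is the gene whose KO pools, at 522 to 814, lie farthest above WT. KO replicate 4 (red diamond) is the lowest KO pool in 7 of the 13 genes (53.8%), and in 45.8% of all genes that rose in the whole table.

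The rises were uneven over the KO pools. In 7 of the 13 risen genes (53.8%) KO replicate 4 had the lowest KO value: Hspa9, Dnaja3, Clpp, Lonp1, Timm23, Timm8a1 and Tomm20. The same held for 45.8% of the 2279 genes that rose in the whole table. Tfam was at 3.52 in that pool, the lowest of 4 KO values that reached up to 5.08. Whether the level of Tfam bears on the uneven rises was not tested. With both replicate-4 libraries left out, 14 members were higher and 1 was lower. With the replicate number as a block the counts were also 14 and 1, against 22.4% higher and 24.3% lower of all tested genes.

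A further list held 34 genes of import and quality control outside the 46. In it 19 rose, 0 fell and 15 did not pass, 55.9% called against 38.7% of the table (18.7% up and 20.0% down). At an unadjusted p under 0.05 or with voom weights, 0 were lower. With the replicate number as a block 19 rose and 1 fell, against 22.4% and 24.3% of all tested genes, and 1 also fell with library quality weights. The median log2 fold change of this list was 0.243. The largest change was that of Ghitm, an inner membrane protein tied to Afg3l2 and to cristae structure, with 296, 296, 295 and 271 in WT and 545, 639, 598 and 425 in KO (log2 fold change 0.91, SE 0.111, limma adjusted p = 0.000179). As in Hspa9, its KO pools all stood above WT and replicate 4 was the lowest of them. Dnajc15, a paralogue of the motor subunit Dnajc19, rose from 14.1 ± 0.559 to 20.6 ± 1.91 (limma adjusted p = 0.000769). Metap1d, which removes the starting methionine of proteins made in mitochondria, rose from 10.1 ± 1.07 to 15.3 ± 0.912 (limma adjusted p = 0.000911). Dnajc19 itself had 21.1 ± 1.97 and 22.4 ± 1.4.

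Among 13 regulators linked to these genes, 3 rose, 1 fell and 9 did not pass, 30.8% called against 38.7% of the whole table (18.7% up and 20.0% down). The transcription factors Atf5 and Atf4, which drive the mammalian response to mitochondrial stress, had 31.7 ± 6.08 and 142 ± 13.6 in WT and 138 ± 13 and 277 ± 49.5 in KO. Ddit3 (CHOP), which was linked early to the Hspd1 and Clpp promoters, had 6.02, 6.56, 5.85 and 7.55 in WT and 19.5, 30.1, 33.1 and 15.4 in KO (log2 fold change 1.71, limma adjusted p = 0.000207). Here too KO replicate 4 was the lowest KO pool. Gabpa, an ETS factor of nuclear genes for mitochondria, fell from 87.3 ± 4.41 to 73.6 ± 6.35 (limma adjusted p = 0.0207). Hsf1, the heat shock factor, and Nrf1 (nuclear respiratory factor) had log2 fold changes of 0.21 and -0.13 and did not pass. Under the replicate block Hsf1 passed as higher (limma adjusted p = 0.039).

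Promoter letters were read for the members with a RefSeq window, 40 of the 46, over the 250 bases before the start site (GRCm38.p6). The element TGATGNAAT, bound by ATF4 with C/EBP partners, was in 0 of 40 members on either strand, against 0.411% of 9244 tested genes with a window. The NRF1 element, GCGCA and GCGC with any 1 base between, was in 6 (15%, against 9.79%), and the ETS element CCGGAAGT in 6 (15%, against 7.2%). Of the 12 risen genes with a window, 3 held the first (Dnaja3, Hspd1 and Tomm20) and 2 the second (Pmpcb and Timm23). Counts this small cannot set the members apart. The stretches around these matches in the risen genes, except that of Hspd1, are given for their position near the start site. The match is in capitals, with 100 bases where no annotated UTR lies in them and 30 otherwise:
Dnaja3, chr16:4683970-4684069, plus strand: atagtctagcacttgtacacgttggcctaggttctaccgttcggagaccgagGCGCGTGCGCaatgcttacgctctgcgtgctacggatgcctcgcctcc
Tomm20, chr8:126945922-126946021, minus strand: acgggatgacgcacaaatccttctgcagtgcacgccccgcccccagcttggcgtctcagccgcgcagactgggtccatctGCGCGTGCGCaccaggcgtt
Pmpcb, chr5:21737130-21737159, plus strand: cctggagtcatgacCCGGAAGTacatctcc
Timm23, chr14:32201921-32201950, minus strand: tcgcgcttcccACTTCCGGgccgcacacag
The NRF1 match of Dnaja3 begins 48 bases and that of Tomm20 begins 20 bases before the start, both on the opposite strand. In the strand printed they thus read as GCGC and TGCGC with any 1 base between. The ETS match of Pmpcb begins 16 bases and that of Timm23, on the opposite strand, 48 bases before it. These are letters in the reference genome, taken from RefSeq, and binding was not measured.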

How the data were processed

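RNA from 8 sorted alveolar macrophage pools, 4 WT and 4 KO, was analysed. The values are normalised signal, on the scale of CPM with a scaled library size, in the table the authors deposited. Per the submitters' processing notes, CASAVA 1.8.2, cutadapt 1.7.1, RSEM 1.3.1 and limma were used with the GRCm38 build. Aligner, annotation release and strand setting were not given in the sources used here, so reads of overlapping genes on opposite strands (Dnaja3 with Coro7, Timm8b with Nkapd1, Tomm6 with Usp49 and Tomm6os, Hspd1 with Hspe1, Htra2 with Aup1, Pmpca with Inpp5e, Dnajc19 with Fxr1, Tomm34 with Stk4, Tomm70a with Nit2, Timm29 with Yipf2, Timm10b with Arfip2, Grpel1 with Tada2b) cannot be told apart.

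Genes reaching a value of 1 in 4 or more libraries were kept (12163, with 204 left out). Log2(value + 1) was fitted with limma 3.58.1 in R 4.3.3 with a mean-variance trend, KO against WT, with Benjamini-Hochberg adjustment over all kept genes. Standard errors and changes are on that scale, which understates changes of low genes. The fit was tested on simulated data with independent libraries and few changed genes. That check therefore does not cover libraries paired by number or changes as widespread as those seen here. Ratios of gene pairs were compared by exact two-sided permutation tests over all libraries, without the replicate number. Replicates are pools of different mice, and p-values measure the spread between pools. Deviations of same-numbered WT and KO libraries correlated at 0.286 to 0.431 (4 pairs) and those of other pairs at -0.374 to 0.0917, so the number was taken to pair them. The labels do not say what it marks.

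All 8 values are given for the 12 members with the lowest adjusted p. From each other list up to 4 genes were named by the same order, with all 8 values or with mean and SD. Any other gene was named after seeing its values. The members and lists were chosen with earlier results of these data known. Voom weights, the omission of both replicate-4 libraries and the 4-unit heat shock motif were added after seeing the data. Promoter windows are from RefSeq (GRCm38.p6), and gene positions from GENCODE M21. The values of 1 gene of the cytosolic list are not reported here.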

Additional observations from a re-analysis of the deposited data

Results flagged for a closer look

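In each genotype, a pool whose gap to its nearest neighbour filled most of the group's range was looked for in each of the 46 genes. Of 92 groups of 4 pools, 5 had one, where chance gives about 1 in 20. For Lonp1, KO replicate 4 stood at 58 below the other KO pools. For Timm8b, WT replicate 2 stood at 22.8 above the other WT pools. For Timm10, WT replicate 2 was high at 10.5, for Timmdc1, WT replicate 4 was high at 17.1, and for Dnajc19, KO replicate 2 was low at 20.3. Only Lonp1 and Timm8b among these 5 passed the genotype test, and both were called under every setting tried.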

How the results depend on the processing

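The count of members that rose, 13, ranged from 8 to 12 when single libraries were left out, with 8 without KO replicate 3, and was 6 at an adjusted p under 0.01. The count that fell, 0, was 1 with library quality weights, with the replicate block, without KO replicate 4 (range 0 to 1) and with both replicate-4 libraries left out. In the further import list the 19 that rose became 12 at an adjusted p under 0.01 (range 16 to 19 without single libraries), and 1 fell with library quality weights and with the replicate block, against 0. Of the regulators, the 3 that rose were 4 with the replicate block, without WT replicate 4 and with both replicate-4 libraries left out. The 1 regulator that fell was 0 at an adjusted p under 0.01. Of the cytosolic list, the 1 that rose was 2 under quantile normalisation, median centring and library quality weights, 0 with no variance trend and at an adjusted p under 0.01, 4 with the replicate block and with both replicate-4 libraries left out, and 0 to 3 without single libraries, while the 2 that fell were 1 at an adjusted p under 0.01. The causes were not tested. The replicate block changed the call of Oma1 and Pmpca and of no other member. For Tfam the log2 fold change ranged from -2.62 to -2.47 without single libraries. No result in any setting changed direction past the threshold. With a minimum value of 8, 45 members were left, without Tomm6os. Pair ratios without single libraries were values with no test. Depth limits Tomm6os most, whose lowest value, 0.15, lies near that of 3 reads in the same library, 0.117.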
